A study of Homo sapiens with 22 samples.

Results

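The 7 mesenchymal transcription factors followed here were SNAI1, SNAI2, TWIST1, TWIST2, ZEB1, ZEB2 and PRRX1, taken by gene symbol from the 33694 genes of the count tables. All 7 had at least 1 UMI (unique molecular identifier, a tag that marks 1 captured mRNA molecule) in 5% or more of the cells and were therefore among the 12794 genes tested. They were followed over 8 sampling days in BJ cells, an established line of human foreskin fibroblasts that was reprogrammed to induced pluripotent stem cells in microfluidic chambers.

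D0 cells had received no transfection. The cells of D3, D5 and D7 were sampled during daily transfections with mRNAs of POU5F1, SOX2, KLF4, MYC, LIN28 and NANOG, which ended on day 8, and those of D9, D11, D13 and D15 were sampled after the last transfection. The medium changed as well. Fibroblasts were grown with serum, transfected cells were kept in a reprogramming medium, and a pluripotency medium was used from D9 on. The paper describes reprogramming as run in a hypoxia incubator and names none for the fibroblast culture. Medium and transfection cannot be told apart in comparisons between these groups of days, nor can oxygen in comparisons with D0. Each day had 2 pools (A and B), each of cells from several chips mixed before freezing, and all cells came from the 1 line and were cryopreserved. Single-cell 3' libraries gave 41975 cells after filtering, with 33181614 to 180056814 UMIs per pool and a median of 23717 to 80168 UMIs per cell in the pools. A pool is therefore the replicate, and p-values measure the spread between pools of 1 line.

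The SNAI and ZEB proteins are zinc-finger repressors, and both families bind E-boxes in the promoters of epithelial genes such as the E-cadherin gene. TWIST1 and TWIST2 are basic helix-loop-helix factors that bind E-boxes as dimers with E proteins, and PRRX1 is a homeobox factor of mesenchymal tissues. The 7 genes are best known for epithelial-to-mesenchymal transition, which is run in reverse when fibroblasts are reprogrammed.

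On GRCh38 (gencode v44) TWIST2 lies at chr2:238848032-238910534 on the plus strand, TWIST1 at chr7:19020991-19117636 on the minus strand and SNAI1 at chr20:49982980-49988886 on the plus strand. ZEB1 lies at chr10:31318495-31529814 on the plus strand, ZEB2 at chr2:144364364-144521057 on the minus strand and PRRX1 at chr1:170662728-170739421 on the plus strand.

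Of the 7 genes, 4 were matched in the RefSeq promoter table of GRCh38.p14, and the 250 bases before the start of the 3 of them that have a single start there are printed because the proteins of this group read E-boxes. They are TWIST2 (chr2:238847835-238848084, plus strand), PRRX1 (chr1:170663881-170664130, plus strand) and ZEB2 (chr2:144520120-144520369, minus strand), each written 5′ to 3′ along its gene with any E-box in capitals. The RefSeq starts are not the outer ends of the gencode genes given above. By those spans the PRRX1 and ZEB2 windows lie inside the gene and the TWIST2 window crosses the gene start.
TWIST2: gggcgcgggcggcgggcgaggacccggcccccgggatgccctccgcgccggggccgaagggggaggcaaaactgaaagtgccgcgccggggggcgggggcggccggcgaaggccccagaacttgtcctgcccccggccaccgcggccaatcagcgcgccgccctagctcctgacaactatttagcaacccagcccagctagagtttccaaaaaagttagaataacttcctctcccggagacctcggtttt
PRRX1: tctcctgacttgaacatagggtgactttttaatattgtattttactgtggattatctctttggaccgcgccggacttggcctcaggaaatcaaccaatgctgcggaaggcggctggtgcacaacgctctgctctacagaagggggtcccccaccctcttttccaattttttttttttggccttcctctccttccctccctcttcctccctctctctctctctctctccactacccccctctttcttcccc
ZEB2: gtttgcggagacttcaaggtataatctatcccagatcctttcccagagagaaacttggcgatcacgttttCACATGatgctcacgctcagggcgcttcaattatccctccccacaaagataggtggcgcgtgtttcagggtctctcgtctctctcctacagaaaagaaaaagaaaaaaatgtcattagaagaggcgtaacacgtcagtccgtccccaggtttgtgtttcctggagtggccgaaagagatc
The E-box searched was CANNTG, which reads the same on both strands and includes the form that SNAI and ZEB proteins prefer, CAGGTG, counted on either strand. The ZEB2 window held 1 match, shown in its line, and neither of the other windows held any. Over the 10 windows of the 4 matched genes, 5 held a CANNTG and 2 held CAGGTG on either strand. Over all 35114 windows of this length, 61.8% held a CANNTG and 17.5% held CAGGTG on either strand. Among 18 windows of 14 epithelial genes listed as SNAI and ZEB targets, 10 (55.6%) held CAGGTG on either strand. That list was drawn from known targets, so this share is a description, and a match is not a bound site.

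Some libraries stood apart. The pools of D3 differed from each other. SNAI2 was 2.42-fold, SNAI1 2.03-fold and TWIST1 1.89-fold higher in pool A, and ZEB1 was 2.41-fold, PRRX1 2.26-fold and ZEB2 1.84-fold higher in pool B. On D13, SNAI2 was 3.33-fold and SNAI1 2.82-fold higher in pool A. D13 pool B also kept only 1181 of 4069 cells when cells needed 2000 or more genes and no more than 5% of mitochondrial UMIs, against 1148 of 1377 in D13 pool A, and its 6 epithelial markers summed to 1600 CPM against 3530 CPM. The D15 pools kept 168 of 571 and 357 of 2108 cells by the same limits. The part of these differences in the members' values was not tested. For the 6 pools captured as 2 frozen aliquots, the members' levels differed between aliquots by a median of 0.38 on the log2 scale over 42 values and by up to 1.38 (TWIST2 in D9 pool A, 24.9 CPM in the smaller aliquot and 64.6 CPM in the larger). Libraries shared at most 1.63% of cell barcodes. At D0 all 10 fibroblast markers exceeded 1 CPM (UMIs of a gene per 1000000 UMIs of the pool) and summed to 37554 and 37650 CPM, 8 of 10 pluripotency markers were under 1 CPM and all 8 mesendoderm, all 6 endothelial, and 5 of 6 keratinocyte, melanocyte and immune markers each were under 1 CPM. The summed fibroblast markers were at 1741 and 2028 CPM on D15, and the summed pluripotency markers went from 4.51 and 4.36 CPM to 3895 and 3381 CPM. In a pool sum, fewer cells of a type and less RNA per cell cannot be told apart.

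TWIST2 was the most abundant member in the fibroblasts and the one that fell furthest. Levels are CPM, and since 1 UMI stands for the 3' end of 1 molecule they do not grow with transcript length. TWIST2 had 597 and 624 CPM in D0 pools A and B, 350 and 295 on D3, 338 and 263 on D5, and 111 and 187 on D7. It went on to 60.3 and 41.2 CPM on D9, 45.5 and 47.8 on D11, 19.0 and 9.85 on D13, and 5.27 and 6.26 on D15. No pool of any later day overlapped the D0 pools, and the mean of D15 was 106-fold below that of D0.

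Its paralog TWIST1, which has a closely related DNA-binding domain, started lower and fell more slowly. TWIST1 had 56.7 and 64.4 CPM on D0, 39.8 and 21.1 on D3, 40.1 and 32.5 on D5, and 27.2 and 36.5 on D7. The later pools held 17.1 and 18.1 CPM on D9, 10.1 and 13.2 on D11, 9.12 and 5.49 on D13, and 4.88 and 3.87 on D15. From D3 to D7 the pools stayed within 1 band with no order between days, and from D9 on they lay under every earlier pool.

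PRRX1 was the second most abundant member on D0, with 147 and 140 CPM. Its pools held 57.5 and 129.9 CPM on D3, 52.2 and 58.1 on D5, 30.3 and 33.8 on D7, and 16.6 and 19.1 on D9. Both D11 pools were higher again, at 39.4 and 38.8 CPM, before 15.4 and 15.7 on D13 and 5.12 and 6.06 on D15. D3 pool B lay close to the fibroblasts and D3 pool A did not.

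The ZEB genes also fell from D0 to D15. ZEB1 had 88.3 and 84.4 CPM on D0, 23.4 and 56.3 on D3, 30.4 and 29.8 on D5, 20.04 and 22.8 on D7, and 9.69 and 10.8 on D9. It was at 18.5 and 21.5 CPM on D11, 9.08 and 8.93 on D13, and 3.25 and 5.29 on D15. ZEB1, like PRRX1, was higher in both pools of D11 than in either pool of D9. ZEB2, on D0 the least abundant of the members that fell, had 31.2 and 33.7 CPM on D0, 9.08 and 16.7 on D3, 11.6 and 14.6 on D5, and 8.43 and 11.4 on D7. Its later values were 4.93 and 5.38 CPM on D9, 7.25 and 8.19 on D11, 5.03 and 8.06 on D13, and 4.94 and 3.47 on D15, with little distance between D9 and D15.

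SNAI2, at chr8:48917598-48921740 on the minus strand, did not fall steadily during transfection. It had 59.9 and 62.9 CPM on D0, 24.9 and 10.3 on D3, but 52.9 and 31.999 on D5 and 20.8 and 31.3 on D7. After the last transfection SNAI2 was at 17.1 and 15.97 CPM on D9, 19.6 and 17.9 on D11, 23.9 and 7.16 on D13, and 2.80 and 3.84 on D15. Both pools of D5 were above both pools of D3 (log2 difference 1.23, SE 0.46, adjusted p = 0.15 by edgeR's quasi-likelihood test, not called), and D15 was the only day after D3 on which both pools lay under every earlier value.

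SNAI1, the SNAI2 paralog that is made as a short-lived protein, was low on every day. It had 3.58 and 3.71 CPM on D0, 8.91 and 4.38 on D3, 8.49 and 3.83 on D5, and 5.18 and 5.15 on D7. It was at 7.13 and 7.19 CPM on D9, 8.31 and 8.32 on D11, 9.21 and 3.27 on D13, and 5.42 and 4.17 on D15. In 13 of 14 later pools SNAI1 was above both fibroblast pools, the exception being D13 pool B. These levels rest on 135 to 1497 SNAI1 UMIs per pool.

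**Figure D1:**
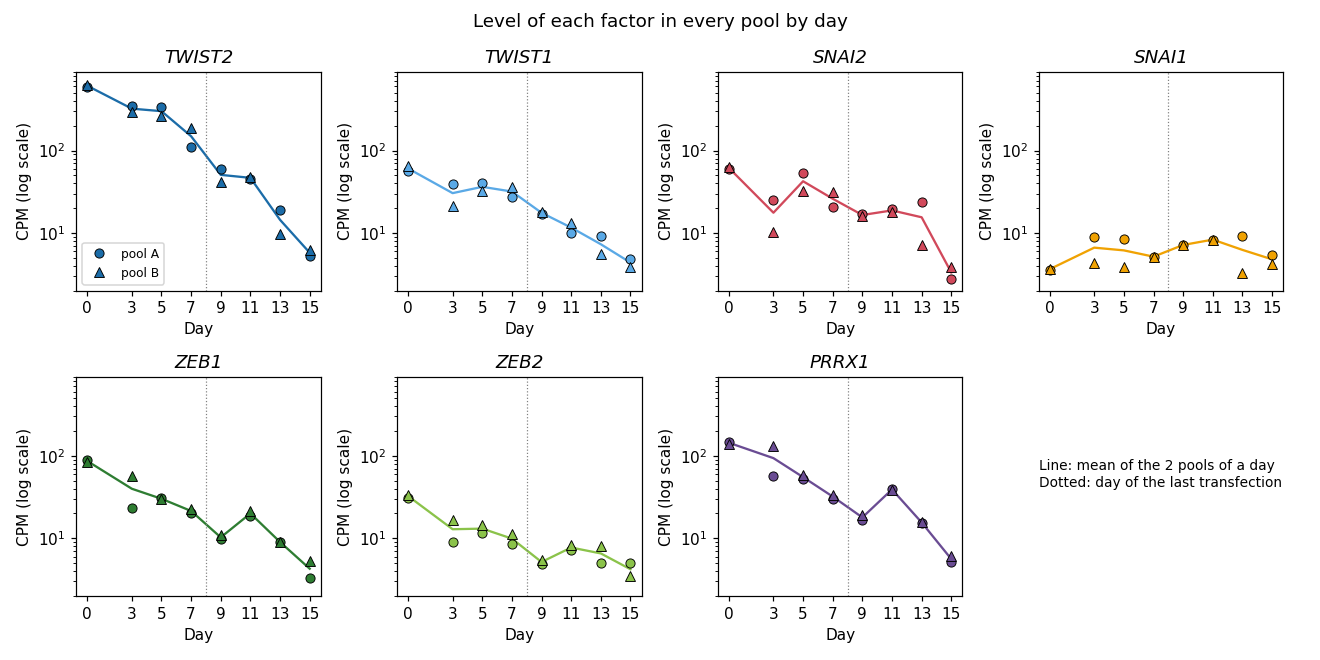
CPM (log axis) of each factor against day, with pool A as circles, pool B as triangles and a line through the mean of the 2 pools. TWIST2 runs from about 610 CPM on D0 to 5.77 CPM on D15, PRRX1 and ZEB1 show higher values on D11 than on D9, and SNAI1 stays under 10 CPM throughout.

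The order of levels in the fibroblasts was TWIST2, PRRX1, ZEB1, then SNAI2 and TWIST1, whose pools overlapped, then ZEB2 and SNAI1. On D15 all 7 genes lay between 2.80 and 6.26 CPM in both pools. TWIST2 and PRRX1 were still first and second by their means, at 5.77 and 5.59 CPM, and most neighbours overlapped.

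Each later day was compared with D0 by edgeR's quasi-likelihood test over all genes with Benjamini-Hochberg adjustment, and a gene was called at an adjusted p under 0.01 with a log2 fold change beyond 0.25. On D3, 3 of the 7 members were called lower, namely SNAI2 (log2 fold change -1.86, SE 0.46, adjusted p = 0.0070), ZEB2 (-1.35, SE 0.34, adjusted p = 0.0078) and TWIST1 (-1.04, SE 0.27, adjusted p = 0.0088), against 12.6% of all genes tested. ZEB1 (-1.12, adjusted p = 0.020), TWIST2 (-0.96, adjusted p = 0.017) and PRRX1 (-0.63, adjusted p = 0.12) missed the threshold. None of the 3 calls of D3 was made without D0 pool A, without D0 pool B, in a fit of the 4 pools alone, or with only the larger aliquot of each pool. Over all genes, those called lower went from 1609 to 714, 677, 0 and 1140 in these fits. The 3 calls were also lost without a filter on genes, where 24999 genes were tested and 1565 called lower. Without D3 pool B, ZEB1 (-1.97) and PRRX1 (-1.41) lay further below D0 than in the main fit, and SNAI2 (-1.39) and TWIST1 (-0.69) less far. A fit that leaves 1 pool on a day takes its spread from the pools of other days.

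On D5, the 4 members called lower were ZEB1 (-1.61), PRRX1 (-1.47), ZEB2 (-1.39) and TWIST2 (-1.11), against 13.8% of all genes. SNAI2 was at -0.63 with an adjusted p of 0.28 and TWIST1 at -0.83 with an adjusted p of 0.025 by edgeR's test. None of the 7 was called on D5 when any 1 of the 4 pools was left out, in fits that called 893 to 915 of all genes lower in place of 1764. On D7, 5 were called lower (17.3% of all genes), the exceptions being SNAI2 (-1.33, adjusted p = 0.028) and SNAI1. Without D7 pool A fewer members, and fewer of all genes, were called lower.

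From D9 on, 6 members were called lower on every day, every member but SNAI1. Of all genes tested, 24.6%, 20.8%, 23.4% and 26.7% were called lower on these 4 days in turn. On D15 the log2 fold changes ran from TWIST2 (-6.78, SE 0.36, adjusted p = 1.1e-08) through PRRX1 (-4.74, SE 0.36), ZEB1 (-4.39, SE 0.39), SNAI2 (-4.26, SE 0.52) and TWIST1 (-3.86, SE 0.30) to ZEB2 (-3.02, SE 0.37). This order is also that of the D0 means, and on D15 all 7 genes lay between 2.80 and 6.26 CPM. The size of a fall thus followed the starting level. The median over the 7 members was -4.26, and over all genes tested 0.01. With the stricter limits on cells, which few D15 cells met, the D15 values were smaller for PRRX1 (-3.23), SNAI2 (-3.06), TWIST1 (-2.97), ZEB1 (-2.93) and ZEB2 (-1.77), and TWIST2 was at -6.15. On D15 the count was 6 in every alternative run and with each pool left out, while on D9, D11 and D13 SNAI2 was lost in some of them.

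SNAI1 was called on no day. Its log2 fold change against D0 was 0.81 on D3, 0.85 on D9, 1.05 on D11 (SE 0.41, adjusted p = 0.046 by edgeR's test) and 0.33 on D15. In fits of the 4 pools alone, SNAI1 was called higher on D9 (adjusted p = 1.9e-05) and on D11 (adjusted p = 0.00058), but these fits called 4978 and 3665 of 12794 genes higher. The log2 fold change of D13 became -0.14 without D13 pool A.

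**Figure D2:**
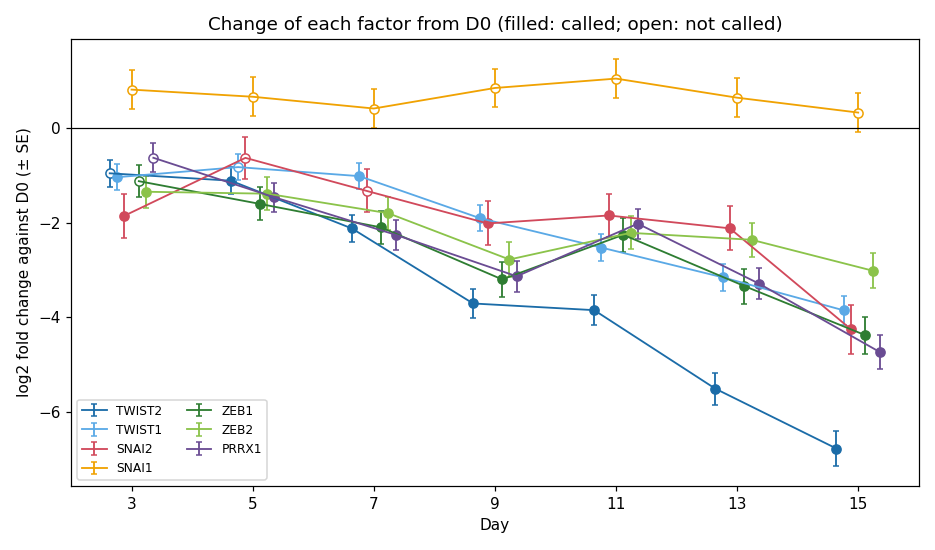
The log2 fold change of each factor against D0 by day, with its standard error; filled points passed the call rule and open points did not, and points of a day are set side by side. TWIST2 reaches -6.78 on D15, ZEB2 -3.02, and every SNAI1 point is above 0 and open.

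By the order of loss, taken as the first day from which both pools stayed under 50% of the D0 mean on every later day, ZEB1, ZEB2 and PRRX1 were first, on D5. TWIST2 followed on D7, and SNAI2 and TWIST1 on D9, while SNAI1 never met the limit. The late place of SNAI2 rests on the need to stay under the limit. Both its pools were under it on D3 (40.6% and 16.8% of D0) but not on D5 (86.1% and 52.1%). On D7 its pool B was at 51.0%. ZEB2 missed the limit on D3 by pool B alone, at 51.3%. The order was different for deep loss. TWIST2 was the first to stay under 10% of D0, from D9, whereas SNAI2, TWIST1, ZEB1 and PRRX1 did so only on D15 and ZEB2 did not, at 12.97% of D0 on D15. ZEB2 had started lowest of the members that fell, at 32.4 CPM. Its D15 mean of 4.21 CPM lay among those of the other members. By the test, the first day from which every later contrast was called lower was D3 for ZEB2, D5 for PRRX1, TWIST2 and ZEB1, D7 for TWIST1 and D9 for SNAI2. With TMM-scaled values, TWIST2 met the 50% limit on D5 and SNAI2 on D7, so the place of these genes rests on the scaling.

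Each day from D5 on was also compared with the day before it. TWIST2 was the only member called lower from D7 to D9 (-1.59, SE 0.29, adjusted p = 0.0025 by edgeR's test), with 2.78% of all genes called lower. This call was lost in a fit of the 2 days alone (-1.57, adjusted p = 0.014) and with the larger aliquots alone (-1.75, adjusted p = 0.012). These fits called 241 and 160 of all genes lower, against 356. TWIST2 was at -1.16 without D7 pool B and at -1.32 without D9 pool B. At an unadjusted p under 0.05 by edgeR's test, 5 members were lower from D7 to D9, against 14.4% of all genes. Besides TWIST2 they were ZEB1 (-1.10), ZEB2 (-0.98), TWIST1 (-0.89) and PRRX1 (-0.88). No member was called lower from D3 to D5 (0.36% of all genes), from D5 to D7 (0.242%), from D9 to D11 (1.17%), from D11 to D13 (0.0703%) or from D13 to D15 (0.086%). At an unadjusted p under 0.05, 1, 2, 1, 4 and 5 members respectively were lower in these steps, against 7.72%, 6.96%, 9.13%, 7.94% and 14.98% of all genes. DESeq2 called 0 members lower in the first 3 of them, 2 from D11 to D13 (238 of 12794 genes) and 3 from D13 to D15 (475 of 12794 genes).

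From D9 to D11 none of the 7 members was called higher (2.92% of all genes) and 2 were higher at an unadjusted p under 0.05 (15.1% of all genes). PRRX1 was higher by 1.11 (SE 0.31, adjusted p = 0.040 by edgeR's test), ZEB1 by 0.94 (SE 0.34, adjusted p = 0.11) ZEB2 by 0.56 (SE 0.34, adjusted p = 0.34), SNAI1 by 0.20 (SE 0.41) and SNAI2 by 0.17 (SE 0.45), while TWIST1 was at -0.62 (SE 0.27, adjusted p = 0.18) and TWIST2 at -0.14 (SE 0.28). With DESeq2 PRRX1 was called (1.10, adjusted p = 0.0068), in a fit that called 806 of 12794 genes higher, against 373 in the main fit. An edgeR fit of the 2 days alone called PRRX1 (1.09, adjusted p = 0.0033) and ZEB1 (0.92, adjusted p = 0.0070), with 746 of all genes higher. Over the same step the 8 mesendoderm markers went from 12.7 and 15.8 to 201.7 and 150.1 CPM in sum, the fibroblast markers from 6413 and 5679 to 6706 and 7516 CPM, and the pluripotency markers from 1731 and 1862 to 2073 and 2547 CPM; the part of these cells in the step was not tested.

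Taking the 8 pools of D9 to D15 against the 6 pools of D3 to D7, 6 members were called lower, against 22.5% of all genes. TWIST2 led (-3.57, SE 0.16, adjusted p = 1.1e-09), followed by TWIST1 (-1.90), PRRX1 (-1.85), ZEB1 (-1.69), SNAI2 (-1.29) and ZEB2 (-1.08, adjusted p = 0.00025 by edgeR's test). SNAI1 was at 0.09 with an SE of 0.22. The median of the members was -1.69 and that of all genes -0.02.

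Whether 2 members changed by different amounts was asked of the log2 ratio of their CPM, by a two-sided exact permutation test over the same 6 and 8 pools with adjustment over 21 pairs. Of the 21 pairs, 11 passed 0.05. Every pair with TWIST2 (6 of 6) and every pair with SNAI1 (6 of 6) passed, and none of the 10 pairs among SNAI2, TWIST1, ZEB1, ZEB2 and PRRX1 did. On D0 TWIST2 was the highest member (610 CPM) and SNAI1 the lowest (3.64 CPM), and on D15 all 7 lay between 2.80 and 6.26 CPM. The part of the starting level in these ratios was not tested. TWIST2 lost 2.51 log2 units against ZEB2, 1.77 against PRRX1 and 1.69 against its paralog TWIST1, with exact p-values of 0.00067, 0.0013 and 0.0013. The ratio of ZEB1 to PRRX1 was the steadiest of the 21 after D7, at -0.90 ± 0.31 (SD, n = 6) before and -0.74 ± 0.25 (SD, n = 8) after (exact p = 0.32). SNAI2 and TWIST1 differed by 0.59 (adjusted p = 0.12, exact permutation test). Pools of different days are not replicates of 1 condition, and 0.00067 is the smallest p that this design can give.

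The share of cells with a factor was counted after every cell had been thinned to 5000 UMIs, so that deeper cells did not gain. TWIST2 was found in 93.3% and 93.5% of the fibroblasts, PRRX1 in 49.7% and 48.9%, ZEB1 in 36.1% and 35.2%, SNAI2 in 26.0% and 26.5%, TWIST1 in 23.5% and 25.8%, ZEB2 in 14.6% and 15.6%, and SNAI1 in 1.95% and 1.99%. TWIST2 was in 72.4% and 72.0% of cells on D3, in 40.1% and 52.1% on D7, in 21.2% and 15.2% on D9 and in 2.45% and 3.18% on D15. PRRX1 was in 25.04% and 47.5% of cells on D3, 8.21% and 10.1% on D9, 18.8% and 17.8% on D11 and 2.10% and 2.99% on D15. The share of cells with a PRRX1 UMI was thus higher in both pools of D11 than in either pool of D9, as its CPM was.

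On D15 the 7 genes were each in 2.13% to 2.82% of cells as day means. In D15 cells with EPCAM, a surface protein of epithelial and pluripotent cells, TWIST2 was in 2.29% of 1574 cells (95% Wilson interval 1.66 to 3.15, counting error only) and SNAI1 in 1.84% (1.29 to 2.63), while ZEB1 and PRRX1 were each in 0.699% (0.391 to 1.25). Whether these shares are background or expression was not tested. The cells are themselves part of the 571 and 2108 cells of D15, so the D15 shares are not independent of them. The D0 shares of SNAI1 lay within its interval in these cells, and no presence or change of SNAI1 is read from its shares. The cells had a median of 33193 UMIs before thinning.

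Counting members per cell, the fibroblasts held a UMI of 2.45 and 2.47 of the 7 genes on average, and 45.8% and 47.8% of them held 3 or more. This share was 15.2% and 21.2% on D3, 7.35% and 11.3% on D7, 4.76% and 4.17% on D9, 5.95% and 8.47% on D11 and 0.701% and 1.28% on D15. Cells with none of the 7 made up 1.43% and 1.21% on D0, 14.8% and 11.6% on D3, 37.0% and 26.0% on D7, 60.3% and 64.3% on D9, and 87.0% and 87.0% on D15. Without thinning, where deeper cells show more genes, cells with none were 14.4% on D9 and 55.2% on D15 as day means. EPCAM ran the other way, from 0.456% and 0.712% of cells on D0 to 28.8% and 37.1% on D9 and 60.9% and 58.2% on D15.

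**Figure D3:**
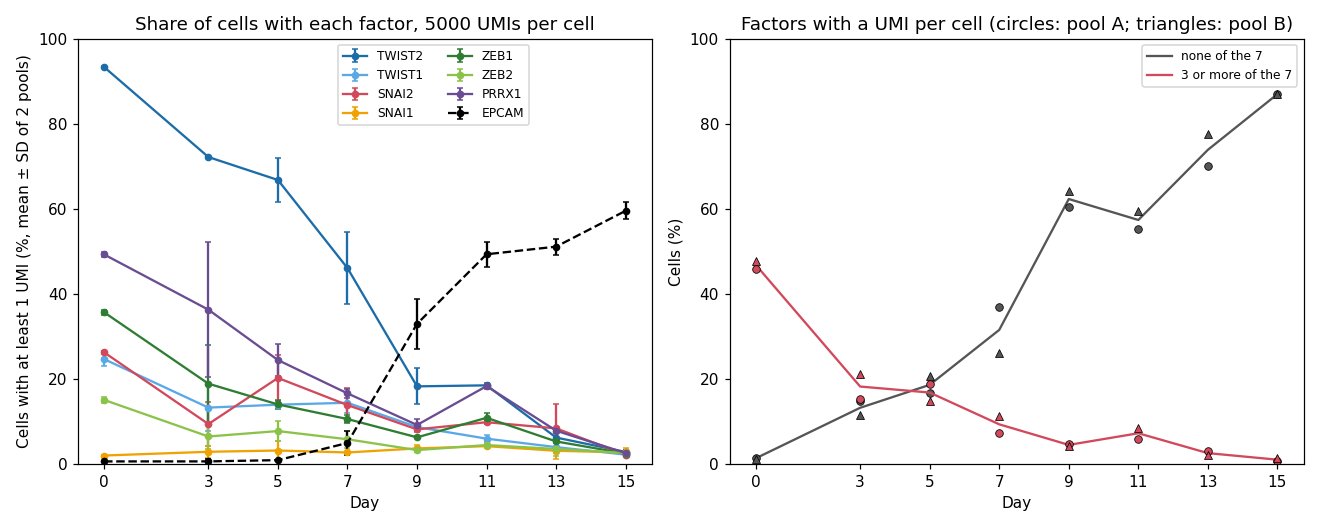
Left, the percentage of cells with at least 1 UMI of each factor and of EPCAM (dashed) after thinning to 5000 UMIs, mean ± SD of the 2 pools of a day. Right, the percentage of cells with none, and with 3 or more, of the 7 factors in each pool; cells with none go from 1.32% on D0 to 87.0% on D15.

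To see which cells of the later days kept the factors, the cells of each D9 to D15 pool were split by EPCAM, with positive cells holding at least 1 EPCAM UMI at 5000 UMIs, and the 8 pools were compared with the pool as block. Between 13.6% and 31.2% of cells in these pools held exactly 1 EPCAM UMI and lay at the limit, and 42.3% to 85.2% of the cells classed negative held EPCAM before thinning. All 7 members were called lower in EPCAM-positive cells, against 21.4% of all genes, and all 56 comparisons of 1 member in 1 pool had the lower CPM in the positive cells. By share of cells with a UMI there was 1 exception, TWIST2 in D15 pool A, in 3.45% of positive and 0.897% of negative cells. The share of all genes that were lower in the positive cells of every pool was not counted, so these tallies have no background.

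PRRX1 differed most (log2 fold change -2.89, SE 0.40, adjusted p = 0.00049 by edgeR's test). It had 22.8 CPM in EPCAM-negative and 3.99 CPM in EPCAM-positive cells of D9 pool A, and 27.4 and 6.50 in D9 pool B. On D11 the negative cells held 66.8 and 80.7 CPM in pools A and B, and the positive cells 19.4 and 4.57. On D15 the negative cells were at 12.9 and 13.1 CPM while the positive cells held 0.148 and 1.36 CPM, which rest on 3 and 53 UMIs. The D11 values of PRRX1 were thus higher than those of D9 within EPCAM-negative cells in both pools, while within EPCAM-positive cells D11 pool A lay above both pools of D9 and D11 pool B between them.

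ZEB1 differed by -2.45 (SE 0.28, adjusted p = 0.00030 by edgeR's test), with 13.1 and 14.9 CPM in negative cells of D9, 31.6 and 43.1 on D11 and 7.50 and 11.01 on D15, against 0.543 and 1.49 in positive cells of D15. SNAI2 (-2.67, SE 0.26) and ZEB2 (-2.19, SE 0.22) were called as well, and SNAI2 was 2.73-fold to 14.6-fold higher in the negative cells across the 8 pools. TWIST1 differed less (-1.48, SE 0.13), and SNAI1 least (-0.81, SE 0.11, adjusted p = 0.00040), by 1.38-fold to 2.51-fold.

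TWIST2 differed by -2.10 (SE 0.35), but unevenly. On D9 its negative cells held 83.7 and 60.9 CPM and its positive cells 12.003 and 10.8, whereas on D15 the negative cells were at 6.57 and 8.38 CPM and the positive cells at 4.44 and 4.85. The ratio of the classes was thus 1.48 and 1.73 on D15, where SNAI1 differed 1.71-fold and 1.38-fold, TWIST1 3.31-fold and 2.13-fold, and SNAI2, ZEB1, ZEB2 and PRRX1 5.70-fold or more. In the positive cells of D15 pool A these last 4 genes rest on 9, 11, 26 and 3 UMIs. Cells with none of the 7 factors were 70.9% to 92.6% of EPCAM-positive and 35.5% to 79.4% of EPCAM-negative cells over the 8 pools.

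**Figure D4:**
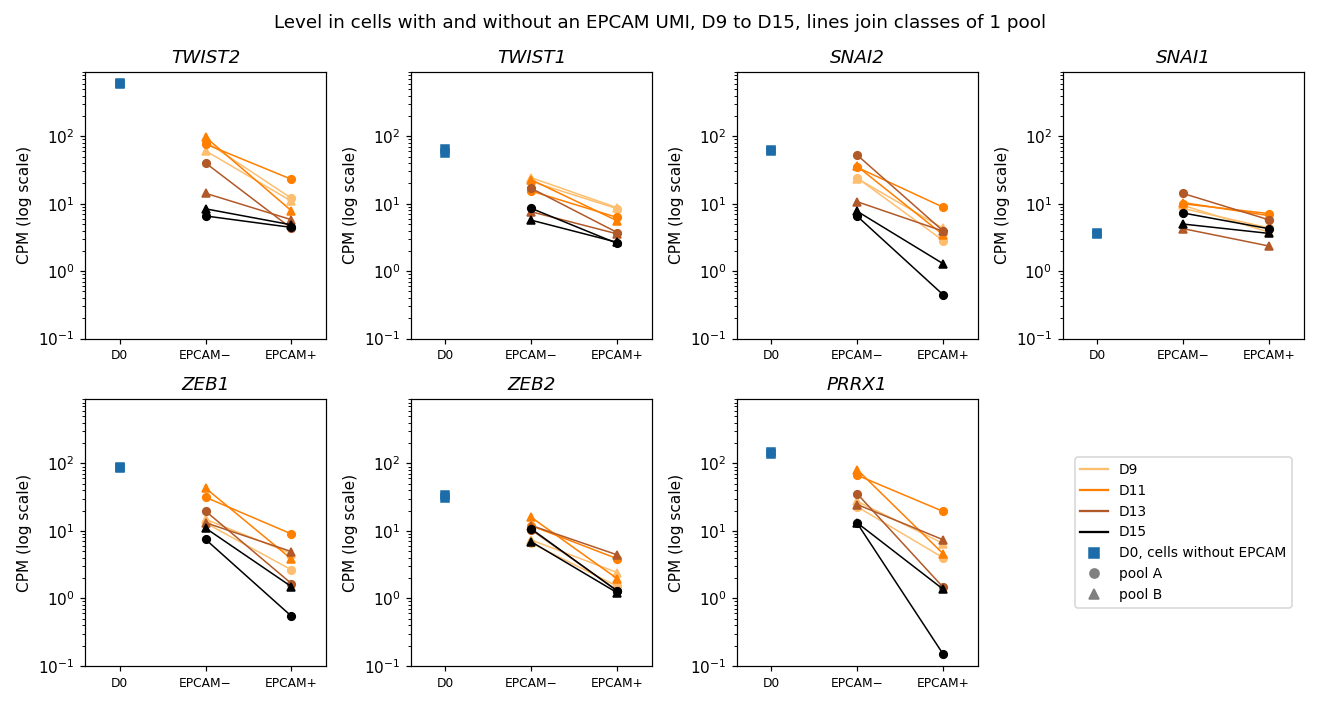
CPM (log axis) of each factor in EPCAM-negative and EPCAM-positive cells of each D9 to D15 pool, joined by a line, with the EPCAM-negative cells of the 2 D0 pools as squares. Every line falls from left to right, and the EPCAM-negative cells lie under D0 for every factor but SNAI1.

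EPCAM-negative cells of the later days are not the same class as those of D0, since 42.3% to 85.2% of the former and 3.53% and 4.37% of the latter held EPCAM before thinning. On D15, 223 and 882 cells were EPCAM-negative but 57 and 173 were POU5F1-negative. As an addition made after the class values were seen, the EPCAM-negative cells of D9 to D15 were compared with those of D0, and 6 members were called lower (26.2% of all genes), TWIST2 by -4.33 (SE 0.25), ZEB1 by -2.51 (SE 0.16), PRRX1 by -2.45 (SE 0.12), TWIST1 by -2.28 (SE 0.22), ZEB2 by -1.86 (SE 0.17) and SNAI2 by -1.72 (SE 0.36, adjusted p = 0.0025 by edgeR's test). SNAI2 was no longer called without D0 pool A or without D0 pool B. SNAI1 was 1.05 higher (SE 0.34, adjusted p = 0.024), which missed the threshold. It passed with DESeq2 (adjusted p = 0.0023), which called 3757 of 12794 genes higher, against 3103 in the main fit. The log2 fold change of SNAI1 was 0.80 without D13 pool A and 1.19 without D13 pool B. In these cells TWIST2 was at 1.08% to 15.9% of its D0 level, TWIST1 at 9.38% to 40.03%, ZEB1 at 8.70% to 49.998%, ZEB2 at 20.3% to 48.8%, PRRX1 at 8.98% to 56.1%, SNAI2 at 10.6% to 85.3% and SNAI1 at 117% to 388%. The value of SNAI2 nearest to the fibroblasts was that of D13 pool A.

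The lists of related genes are read against the shares of all genes called. These were 13.1% higher and 12.6% lower on D3, 26.8% higher and 26.7% lower on D15, 21% higher and 22.5% lower in D9 to D15 than in D3 to D7, and 24% higher and 21.4% lower in EPCAM-positive cells.

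Among the partners of the TWIST proteins, 7 genes were listed: the E proteins TCF3, TCF4 and TCF12, which dimerise with TWIST proteins, and ID1 to ID4, which sequester E proteins. From D0 to D15, 4 rose and 3 fell. ID3 rose from 56.3 ± 1.4 to 226 ± 15 CPM (SD, n = 2), a log2 fold change of 1.94, TCF3 by 1.73 and ID1 by 1.64. TCF4 fell from 192 ± 3.8 to 55.3 ± 6.4 CPM, and ID2 (-1.39) and TCF12 (-1.10) fell as well. The E protein genes and the ID genes thus each had members that rose and members that fell. ID2 (-2.96) and ID1 (-1.81) had been lower on D3, and both were called higher in D9 to D15 than in D3 to D7 (1.37 and 2.28). Between the EPCAM classes TCF3 was higher in positive cells (0.34) and TCF4 (-0.53) and TCF12 (-0.37) lower.

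Of 15 co-repressors and chromatin partners through which SNAI and ZEB factors act, 6 rose (26.8% of all genes) and 0 fell (26.7%) from D0 to D15 by edgeR's test, with 2 lower at an unadjusted p under 0.05. HDAC2, a histone deacetylase, rose from 66.2 to 266 CPM (1.95), the histone demethylase gene KDM1A by 1.77 and the chromatin remodeller gene SMARCA4 by 1.73. On D3, PRMT5, an arginine methyltransferase gene, was already higher by 1.57 and EZH2, of the Polycomb complex, by 1.37. Of 12 tested genes for the turnover of SNAI1 and ZEB1 proteins, 4 rose and 1 fell from D0 to D15, with 26.8% of all genes higher and 26.7% lower. The ubiquitin ligase gene FBXO45 rose by 1.80 and the kinase gene PAK1 by 1.26, and the kinase gene GSK3B fell by 0.56 on the log2 scale.

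Of 20 other tested factors of epithelial-to-mesenchymal transition and mesenchymal tissues, 18 fell, 1 rose (MEOX1, at 5.45) and 1, KLF8, was not called (0.40, adjusted p = 0.12 by edgeR's test) from D0 to D15, with a median of -2.92. OSR2, a zinc-finger factor of limb and palate mesenchyme, fell from 305 ± 6.0 to 0.337 ± 0.18 CPM (-9.78) and TBX5 from 40.4 ± 1.4 to 0.245 ± 0.090 CPM (-7.34). OSR2 (-3.97) and the nuclear receptor gene NR2F2 (-2.36) were also among the 8 of 20 that fell by D3. PRRX2, the paralog of PRRX1, was lower in EPCAM-positive cells by 1.18, with means of 18.2 and 43.2 CPM.

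Of the 22 tested epithelial genes held as targets of SNAI and ZEB repressors, 0 were called higher and 5 lower on D3 by edgeR's test. At an unadjusted p under 0.05, 4 were higher and 8 lower. The list was not counted on D5 or D7, and no order between these genes and the members was tested. The 6 epithelial markers, some of them outside this list, summed to 94.5 and 91.9 CPM on D0 and 314 and 239 on D3. They were at 835 and 841 CPM on D5 and 1753 and 1167 on D7. CDH1, the E-cadherin gene, had 3 and 2 UMIs in the D0 pools and 0 and 1 on D3, too few for a fold change. In D9 to D15 against D3 to D7, all 22 were higher, with a median of 4.19. RAB25, of vesicle traffic in epithelia, went from 0.254 ± 0.36 (SD, n = 6) to 26.1 ± 9.4 CPM (SD, n = 8) and CDH1 from 0.104 ± 0.14 to 24.2 ± 13 CPM. Genes as rare as these before D9 could pass the filter on cells with a UMI only through the later cells. The counts of list genes higher on later days, and their median, are therefore partly set by the filter. From D0 to D15, 20 of 22 rose, and within D9 to D15 pools 20 of 22 were higher in EPCAM-positive cells, among them RAB25 (1.39), CLDN7 (1.37) and CRB3 (1.36).

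Regulators that oppose ZEB factors in epithelia were tested for 6 of 11 genes. From D0 to D15, 5 rose and KLF4, which was also given as mRNA, fell (-5.10). The count of those that rose is likewise partly set by the filter on cells with a UMI. The splicing regulator gene ESRP1 went from 0.00600 CPM, which is 2 UMIs in pool A and 0 in pool B, to 34.4 CPM, and OVOL2, a zinc-finger repressor of ZEB1, was at 0.00600 CPM on D0, 8.93 on D9 and 4.51 on D15. In EPCAM-positive cells 6 of 8 tested were higher, ESRP1 by 1.37 and OVOL2 by 1.27, and KLF5, an epithelial zinc-finger factor, was lower (-0.36, adjusted p = 0.0034 by edgeR's test).

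Of 23 mesenchymal target genes, 15 fell and 2 rose from D0 to D15. DCN, a collagen-binding proteoglycan gene, fell from 458 ± 9.3 to 3.04 ± 1.4 CPM and S100A4 from 6390 ± 280 to 93.2 ± 16 CPM. CDH2, the N-cadherin gene, rose from 15.4 to 39.1 CPM (1.28), and TAGLN by 1.30. In EPCAM-positive cells 21 of 23 were lower and 0 higher by edgeR's test (0 also at an unadjusted p under 0.05), with DCN at -3.26, LUM at -2.88 and COL1A1 at -2.78.

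TGF-beta signalling induces SNAI and ZEB genes in epithelia. Of 15 of its genes tested, 3 rose and 4 fell from D0 to D15, shares of the list no larger than those of all genes (26.8% and 26.7%), and 2 were higher and 8 lower in EPCAM-positive cells (24% and 21.4%). On D3, 0 were higher and 6 lower than on D0 (13.1% and 12.6% of all genes). In D9 to D15 against D3 to D7, 6 were higher and 2 lower (21% and 22.5%). From D0 to D15, the receptor genes TGFBR3 (-3.34) and TGFBR2 (-3.10) and the mediator gene SMAD3 (-2.09) fell, and SKIL, a repressor of SMAD proteins, rose from 5.09 to 73.9 CPM (3.80). The ligand gene TGFB2 rose by 1.49 to 4.20 CPM on D15, after 9.95 CPM on D9, and was 2.34 lower in EPCAM-positive cells.

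The antisense transcript ZEB1-AS1, which starts beside ZEB1, had 5.99 CPM on D0 and 0.976 CPM on D15 (-2.68), and was lower in EPCAM-positive cells by 1.08. ZEB2-AS1 had 0.536 CPM on D0 and 0.0151 on D15 and was too rare to be tested. TWISTNB, a gene on the same chromosome as TWIST1, rose from 19.98 to 74.0 CPM (1.83).

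Over the 8 day means of log2(CPM + 1), the genes with courses most like each member were, for TWIST2, VIM (r = 0.999), SQRDL and LGALS3, and for TWIST1, CST3 (r = 0.997), MEIS1 and CRTC3. They were TRADD (r = 0.998), MGLL and CAV1 for ZEB1, TRPS1 (r = 0.997), ERCC5 and SNHG18 for ZEB2, and TRAM2 (r = 0.995), NT5E and MGLL for PRRX1. SNAI2 was most like CREB3L1 (r = 0.986), LUM and TINF2, and SNAI1 most like C9orf78 (r = 0.957), SPCS2 and CENPA. These r values are Pearson correlations across 8 days, given as descriptions, and MGLL was named for both ZEB1 and PRRX1.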

How the data were processed

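The deposited files hold raw UMI counts per gene and cell barcode for 22 libraries, which the authors made with Cell Ranger 2.2 on hg38 from 10x 3' libraries; no normalization is applied in them. Libraries of aliquots of 1 pool were added, giving 2 pools a day and 16 in all. Of 44197 barcodes, 41975 passed a minimum of 1000 genes and a maximum of 10% mitochondrial UMIs. Counts were summed per pool, CPM is relative to all UMIs of a pool, and 12794 genes with a UMI in at least 5% of cells were tested with edgeR 4.0.16 (quasi-likelihood, TMM, 1 coefficient per day) in R 4.3.3. EPCAM classes had at least 20 cells per pool. DESeq2 1.42.0 was an alternative. Doublets were not removed in the main values; in 1 alternative the 1167 cells with the highest Scrublet scores were. Shares were counted after thinning each cell to 5000 UMIs, and no cell kept had fewer. The ratio test added 0.1 CPM. Python 3.11.15 and scanpy 1.11.5 were used, and the fits were tested on simulated data.

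The 7 genes and the gene lists were chosen with earlier results of these data known. Named list genes were up to 3 called changes in each direction with the largest fold change, at least 10 CPM on the higher side and the same direction in every pool. Exceptions chosen after their values were seen are MEOX1, KLF8, OVOL2, TGFB2, ZEB1-AS1, ZEB2-AS1 and CDH1 on D3. Counting intervals cover sampling only. The letters A and B were not used as pairs in the main fit. Over 28 pairs of days the differences between pools A and B correlated at -0.447 to 0.817, with a median of -5.3e-06. Some pairs of days thus shared these differences, though not by the median.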

Additional observations from a re-analysis of the deposited data

How the results depend on the processing

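The early calls depend on single pools and settings. The calls over all genes moved as well. For D3 against D0, 1609 of 12794 genes were called lower in the main fit, 2219 with DESeq2, 1140 with the larger aliquot only and 0 in the fit of the days compared. For D5 these were 1764 in the main fit, 1801 with the stricter filter on cells and 1368 with the larger aliquot only. For D3 against D0, the 3 members called lower became 0 without a filter on genes, 5 with DESeq2, 0 in a fit of the days compared, 0 with the larger aliquot only and 0 to 3 with 1 pool left out. For D5 the 4 became 1 with the stricter filter on cells (at least 2000 genes, at most 5% mitochondrial UMIs), 2 with the larger aliquot only and 0 with any pool left out. For D9 against D7 the count was 0 with the larger aliquot only, where 160 of all genes were called lower (356 in the main fit). DESeq2 called 2 members lower for D13 against D11, with 238 of all genes (9 in the main fit). For D15 against D13 it called 3, with 475 of all genes (11 in the main fit). With 1 pool left out, the counts of members for D7 and for these steps moved, and so did those of all genes. From D9 on, the 6 calls against D0 were 5 or 6 under every alternative and 6 between phases (5 with the stricter filter); the 7 calls between EPCAM classes held when classes were set by CDH1 or POU5F1 and in each other alternative. Of 13188 genes, 2817 were called lower in EPCAM-positive cells, 1557 with classes by CDH1 and 3693 with classes by POU5F1. Of 21 ratios, 10 to 12 passed.

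With the pool letter as replicate block, 4 members were called lower on D3 (3 without it), with ZEB1 added, and 1830 of all genes (1609 without it). With no replicate block, 7 members remained between the EPCAM classes, and 1998 of all genes (2817 with it). The block changed no other count of members. The cells with no member depend on depth: on D0 they were 1.32% at 5000 UMIs, 14.4% at 2000, 0.107% at 10000, 0.116% without thinning and 1.09% with stricter cells. On D9 they were 62.3%, 79.3% at 2000, 49.4% at 10000 and 14.4% without thinning. On D15 they were 87.0%, 94.0% at 2000, 80.7% at 10000, 55.2% without thinning and 77.3% with stricter cells, which keep 168 of 571 and 357 of 2108 cells. With a limit of 25% of D0 in place of 50%, 0 members were lost from D5 on (3), 0 from D7 on (4) and 2 from D9 on (6). SNAI1 changed sign between phases without a filter on genes (-0.027), with the larger aliquot only (-0.037) and without 1 pool (range -0.11 to 0.29), and on D13 without pool A (range without 1 pool -0.14 to 1.17). The cause of these changes was not tested beyond their construction. Depth limits the D15 EPCAM-positive values, where PRRX1 rests on 3 and 53 UMIs.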
